A study of Rattus norvegicus with 4 samples.

Results

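The mitochondrial genome encodes 7 subunits of respiratory complex I, and their mRNAs were followed in 4 RNA-seq libraries of rat oocytes. Members were taken by their Ensembl gene IDs: *Mt-nd1* (ENSRNOG00000030644), *Mt-nd2* (ENSRNOG00000031033), *Mt-nd3* (ENSRNOG00000033615), *Mt-nd4* (ENSRNOG00000029707), *Mt-nd4l* (ENSRNOG00000031053), *Mt-nd5* (ENSRNOG00000029971) and *Mt-nd6* (ENSRNOG00000029042). All 7 were found among the 32883 gene IDs of the count table. The oocytes were fully grown, came from wild-type Sprague Dawley rats without superovulation, and still had an intact germinal vesicle (GV), the nucleus of meiotic prophase arrest. They were kept in medium with 0.2 mM IBMX, an inhibitor that holds them in this arrest. Each library was made from the total RNA of 25 oocytes, and the labels call the molecule polyA RNA. The series has 1 group of 4 replicates and no treatment, mutant or other stage, so no difference between conditions could be tested. The sources used here give neither the age nor the number of the animals. Replicates may therefore share animals, and part of their spread may be technical. The table carries no gene symbols, so the cell type of the label was not checked against oocyte or cumulus cell markers.

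Complex I, the NADH dehydrogenase of the inner mitochondrial membrane, passes electrons from NADH to ubiquinone and pumps protons. The mitochondrial genes give part of its membrane arm, and nuclear genes give all its other subunits. The mitochondrial genes are read from both strands as long precursor RNAs, which are then cut into mRNAs, rRNAs and tRNAs. *Mt-nd6* alone among the 7 members lies on the light strand. *Mt-nd4l* and *Mt-nd4* overlap and share an mRNA in mammals. Oocytes hold a very large store of mitochondria, which are passed on to the embryo.

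Library totals ranged from 19863236 to 28062431 counts. Counts were scaled to a library total of 1000000 (counts per this total, CPM), in which a single count was worth 0.0356 to 0.0503 CPM. The 95% intervals given here are exact Clopper-Pearson intervals and cover counting error only. CPM is not corrected for gene length, and lengths of the members were not used here. Orders of counts among members therefore mix the level of an mRNA with its length, and values of different members are not compared as levels.

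The complex I mRNAs together made up well under 1% of the counts on genes, and their share differed between libraries. The 7 members held 102013 counts in replicate 1, 62288 in replicate 2, 98695 in replicate 3 and 83226 in replicate 4. These were 0.364% (95% interval 0.361 to 0.366), 0.314% (0.311 to 0.316), 0.409% (0.407 to 0.412) and 0.331% (0.329 to 0.333) of the library totals. The mean share was 0.354% ± 0.0420 (SD, n = 4). The intervals of the 4 libraries did not overlap, with replicate 3 highest and replicate 2 lowest, so the libraries differed by more than counting error. In RNA of whole oocytes, fewer mitochondria and less RNA per mitochondrion cannot be told apart. Nor can either be told apart from technical differences between libraries or changes in the other RNA, and none of these was tested.

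**Figure D1:**
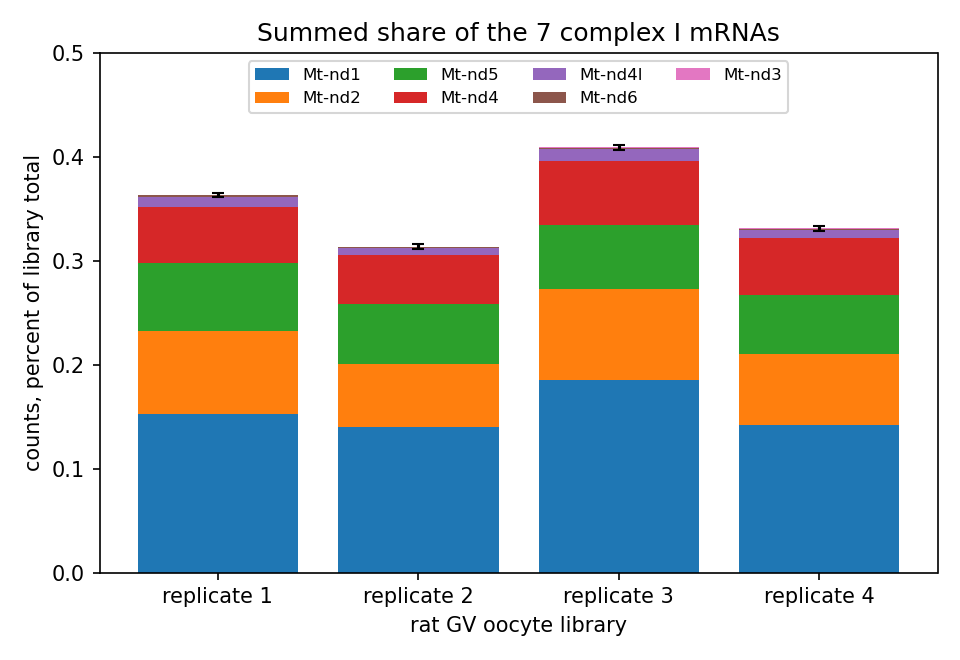
Counts of the 7 complex I mRNAs as a percent of each library total (vertical axis) in the 4 rat GV oocyte libraries (horizontal axis), stacked by gene, with exact 95% counting intervals of the sum as black bars. The sum lies between 0.314% in replicate 2 and 0.409% in replicate 3, and *Mt-nd1* is the widest band in every library.

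Each of the 7 members reached 1 CPM in all 4 libraries, as did 33.8% of all gene IDs in the table. Only *Mt-nd1*, *Mt-nd2*, *Mt-nd4* and *Mt-nd5*, 4 of the 7, reached 100 CPM in all libraries, against 6.22% of all gene IDs. The order of the members by counts was the same in all 4 libraries: *Mt-nd1*, *Mt-nd2*, *Mt-nd5*, *Mt-nd4*, *Mt-nd4l*, *Mt-nd6* and *Mt-nd3*.

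*Mt-nd1* encodes the membrane subunit at the junction with the peripheral arm, beside the ubiquinone site. It had 1525, 1401, 1855 and 1424 CPM in replicates 1 to 4. Replicate 3 stood above the others, which lay between 1401 and 1525 CPM. The mean was 1552 ± 210 CPM (SD, n = 4), and *Mt-nd1* took 43.7% ± 1.54 of the counts of the 7 members (SD, n = 4). By mean CPM it was in place 46 among all gene IDs.

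*Mt-nd2*, *Mt-nd4* and *Mt-nd5* encode the antiporter-like subunits that line the proton-pumping membrane arm. *Mt-nd2* had 801, 607, 870 and 675 CPM in replicates 1 to 4, with a mean of 738 ± 119 CPM (SD, n = 4). *Mt-nd4* had 530, 469, 619 and 551 CPM, with a mean of 542 ± 62.0 CPM (SD, n = 4). *Mt-nd5* had 657, 580, 619 and 573 CPM, with a mean of 607 ± 39.1 CPM (SD, n = 4). *Mt-nd5* thus varied least of the members in CPM, and its highest library, replicate 1, was 1.15 times its lowest. *Mt-nd2* and *Mt-nd4* were both highest in replicate 3 and lowest in replicate 2, by 1.43 and 1.32 times. The counts of *Mt-nd4* and *Mt-nd5* were close in replicate 3, at 14921 and 14935, and their 95% counting intervals overlapped there. In the other libraries *Mt-nd5* had more counts, up to 18449 against 14883 in replicate 1.

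*Mt-nd3*, *Mt-nd4l* and *Mt-nd6* encode small membrane subunits packed between the junction subunit and the pumping arm. *Mt-nd4l* had 102, 67.0, 113 and 74.5 CPM in replicates 1 to 4, a mean of 89.1 ± 21.9 CPM (SD, n = 4). Replicates 1 and 3 lay above replicates 2 and 4, and the highest value was 1.69 times the lowest. *Mt-nd6* had 15.4, 9.21, 12.7 and 11.7 CPM, a mean of 12.2 ± 2.56 CPM (SD, n = 4). Replicate 1 (95% interval 14.0 to 16.9) was 1.67 times replicate 2 (7.93 to 10.6).

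*Mt-nd3* received the fewest counts of the members, 114, 53, 101 and 69 in replicates 1 to 4. These were 4.06, 2.67, 4.19 and 2.75 CPM, with a mean of 3.42 ± 0.821 CPM (SD, n = 4). In mean CPM *Mt-nd3* was in place 9598 of 32883 gene IDs. Its 95% counting intervals overlapped between all libraries, for example 2.00 to 3.49 CPM in replicate 2 and 3.41 to 5.09 CPM in replicate 3. Such overlap does not show equal levels: the coefficient of variation of its CPM was 24.0%, against 11.4% from counting error alone. The differences of *Mt-nd3* between libraries rest on few counts and were the least well measured of the 7 members.

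**Figure D2:**
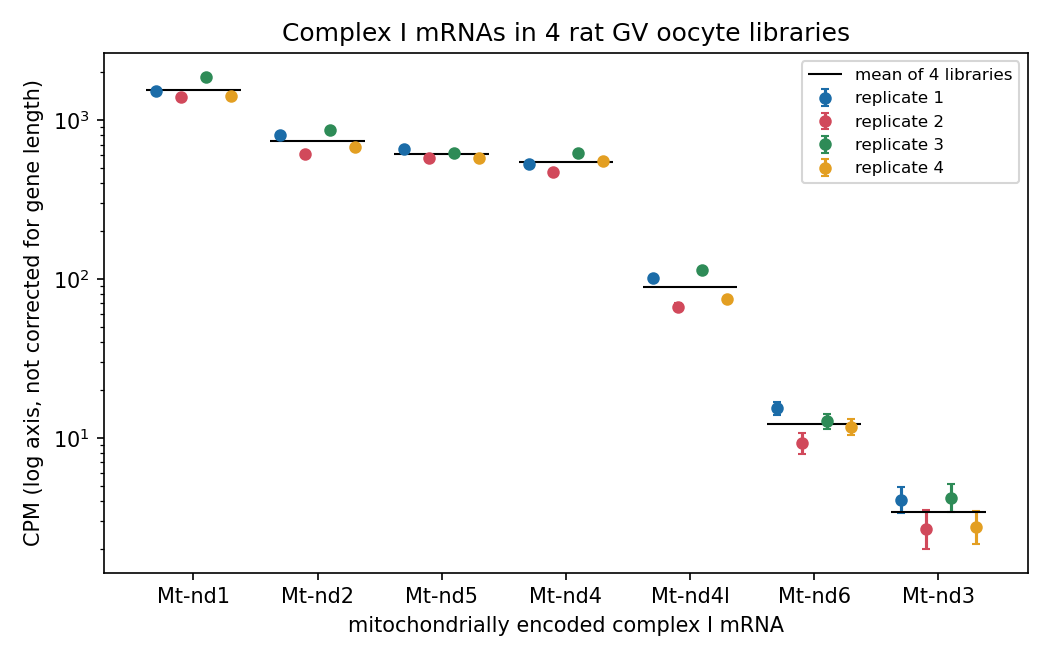
CPM (vertical log axis, not corrected for gene length) of each complex I mRNA in the 4 rat GV oocyte libraries, with exact 95% counting intervals as error bars and the mean of 4 libraries as a black line. The members lie between 2.67 CPM for *Mt-nd3* in replicate 2 and 1855 CPM for *Mt-nd1* in replicate 3, and the counting intervals are visible mainly for *Mt-nd6* and *Mt-nd3*.

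The members tended to be high and low in the same libraries. Replicates 1 and 3 held the 2 highest values of 6 of the 7 members, all but *Mt-nd4*, which had its highest values in replicates 3 and 4. Among the 11112 gene IDs at or above 1 CPM in every library, 16.8% had replicates 1 and 3 as their highest libraries. Replicate 3 was the highest library for 5 members, against 18.9% of these gene IDs, with *Mt-nd5* and *Mt-nd6* highest in replicate 1. Replicate 2 was the lowest library for 6 members, against 30.1%, but for 4 when library sizes were scaled by TMM or by DESeq2 size factors, where *Mt-nd1* and *Mt-nd3* were lowest in replicate 4. These features were picked after the values had been seen. The members come from common precursor RNAs and are not independent genes, so the counts are descriptions without a test.

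On the log2 scale, the mean deviation of the 7 members from their own means was 0.15 in replicate 1, -0.25 in replicate 2, 0.22 in replicate 3 and -0.12 in replicate 4. The median deviation of the 11112 expressed gene IDs was between -0.02 and 0.03 in these libraries. On average, the complex I mRNAs thus lay above their means in replicates 1 and 3 and below them in replicates 2 and 4. Exceptions were *Mt-nd1* (-0.015) and *Mt-nd4* (-0.025) in replicate 1, and *Mt-nd4* (0.031) in replicate 4. The median of the expressed gene IDs stayed near 0. Single gene IDs vary more than this median does.

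**Figure D3:**
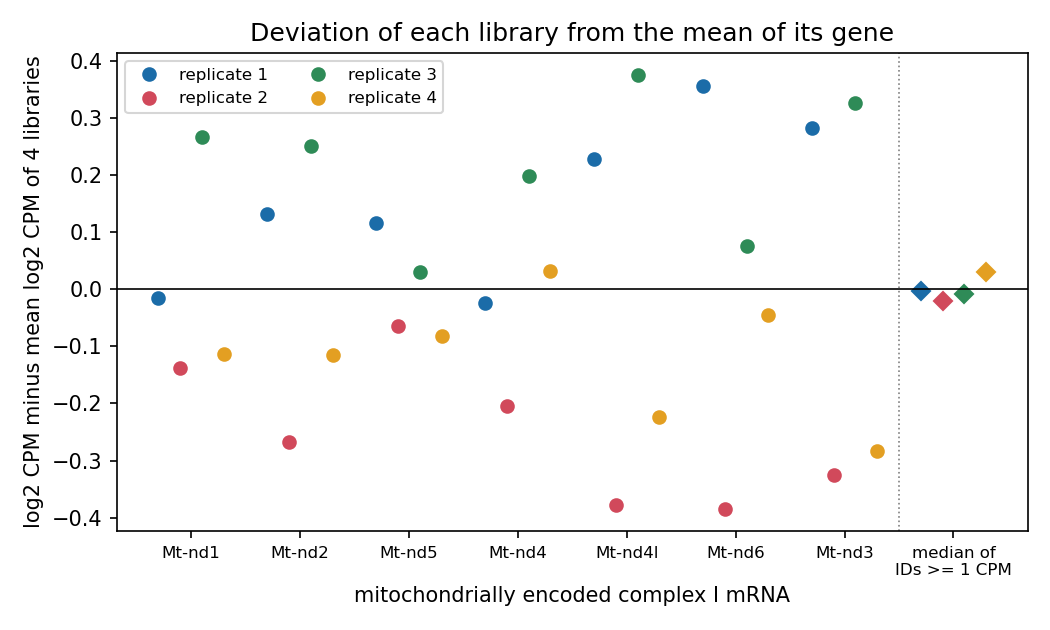
Deviation of each library from the mean log2 CPM of its gene (vertical axis), for the 7 complex I mRNAs and, as diamonds on the right, the median of the 11112 gene IDs at or above 1 CPM in every library. The members spread from about -0.39 (*Mt-nd6*, replicate 2) to 0.38 (*Mt-nd4l*, replicate 3), while the diamonds lie between -0.02 and 0.03.

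The spread between libraries was unequal among the members. The coefficient of variation of CPM was 6.43% for *Mt-nd5*, 11.4% for *Mt-nd4*, 13.5% for *Mt-nd1* and 16.1% for *Mt-nd2*. It was 20.9% for *Mt-nd6*, 24.0% for *Mt-nd3* and 24.6% for *Mt-nd4l*. Counting error alone gives 6.01% for *Mt-nd6*, 11.4% for *Mt-nd3* and 2.24% for *Mt-nd4l*, and under 1% for the other 4. The spread of *Mt-nd4l* was therefore far above its counting error, whereas counting made up a larger part for *Mt-nd3*. Highest and lowest libraries differed at least 1.5-fold for *Mt-nd3*, *Mt-nd4l* and *Mt-nd6*, 3 of the 7 members. The same held for 25.0% of the gene IDs at or above 1 CPM in every library, whose median coefficient of variation was 10.6%. Among the 2045 gene IDs at or above 100 CPM in every library the median was 5.52%, below the value of each of the 4 members in that range.

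The spread beyond counting error was also estimated with edgeR from the 16191 gene IDs that reached 10 counts over the libraries. The method draws each gene towards the trend of genes with similar counts. It gave 7.73% for *Mt-nd5*, 8.97% for *Mt-nd4*, 9.79% for *Mt-nd1*, 10.9% for *Mt-nd2*, 15.1% for *Mt-nd4l*, 17.4% for *Mt-nd6* and 24.3% for *Mt-nd3*. *Mt-nd4l* lay farthest above the trend, which was 9.30% at its count level, and *Mt-nd2* stood at 10.9% against a trend of 7.95%. *Mt-nd3* (trend 25.1%) and *Mt-nd5* (trend 7.98%) lay just below it. Without the pull to the trend, DESeq2's estimate from each gene alone was 24.9% for *Mt-nd4l*, 16.4% for *Mt-nd2*, 14.2% for *Mt-nd1* and 7.21% for *Mt-nd5*. The median of the 7 members was 10.9% by edgeR and 16.4% by DESeq2, whereas the median of all 16191 gene IDs was 19.1% and 11.6%. The members' median thus lay below that of all gene IDs by the first estimate and above it by the second. *Mt-nd1*, for example, was in place 3312 from the lowest by edgeR and past the middle by DESeq2 (place 9128). The edgeR trend falls as counts rise, so edgeR places and medians over all gene IDs partly reflect count level. DESeq2 places and medians cover the same gene IDs, including those with few counts, whose estimates from a gene alone are imprecise. Neither median compares the members with gene IDs of like counts. At its own count level *Mt-nd1* lay above the trend, at 9.79% against 7.81%.

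**Figure D4:**
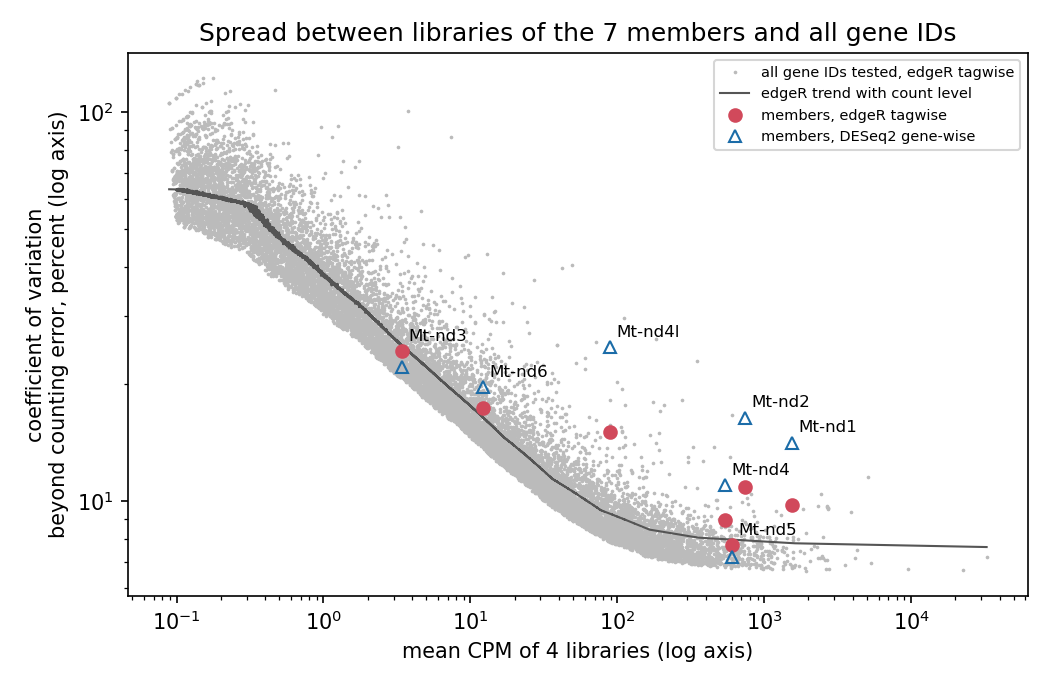
Coefficient of variation between libraries beyond counting error (vertical log axis, percent) against mean CPM (horizontal log axis) for 16191 gene IDs (grey, edgeR), with the edgeR trend (line), the 7 members by edgeR (filled circles) and by DESeq2 without a trend (open triangles). *Mt-nd4l* lies above the trend by both estimates, at 15.1% and 24.9% against 9.30%, while *Mt-nd5* and *Mt-nd3* lie below the trend by both.

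Ratios of counts within a library do not depend on the library total and were used to see which members moved together. Over the 21 pairs of members, the SD of the log2 count ratio between libraries was 0.06 to 0.29. The steadiest pair was *Mt-nd3* and *Mt-nd4l*, whose log2 ratio stayed between -4.76 and -4.65. Counting error alone would give this ratio an SD of 0.17, so its steadiness cannot be read beyond the counts of *Mt-nd3*. The next were *Mt-nd1* with *Mt-nd4* (SD 0.10) and *Mt-nd1* with *Mt-nd2* (SD 0.11), both above a counting error of 0.01. The least steady was *Mt-nd4l* with *Mt-nd5*, with an SD of 0.29.

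*Mt-nd4l* and *Mt-nd4*, which share an mRNA, did not keep a constant ratio of counts. There were 19.2, 14.3, 18.2 and 13.5 *Mt-nd4l* counts per 100 *Mt-nd4* counts in replicates 1 to 4, a mean of 16.3 ± 2.83 (SD, n = 4). *Mt-nd4l* made up 16.1% (95% interval 15.6 to 16.7) of the counts of the pair in replicate 1 and 15.4% (14.9 to 16.0) in replicate 3. It made up 12.5% (11.9 to 13.1) in replicate 2 and 11.9% (11.4 to 12.4) in replicate 4. The intervals of replicates 1 and 3 lay above those of replicates 2 and 4. How reads in the overlap of both genes were counted is unknown from the sources used here, so the counts of this pair are uncertain to that extent.

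*Mt-nd6* is the light-strand member, and its counts were set against those of the 6 heavy-strand members to follow the ratio between libraries, not to compare levels. It had 25.5, 17.7, 18.7 and 21.2 counts per 1000 counts of the mean heavy-strand member in replicates 1 to 4, a mean of 20.8 ± 3.50 (SD, n = 4). Against *Mt-nd5*, its neighbour on the other strand, the values were 23.4, 15.9, 20.5 and 20.4 per 1000. Replicate 1 was highest and replicate 2 lowest in both ratios. However, *Mt-nd6* had only 183 counts in replicate 2 and 306 in replicate 3, and its counting error was 6.01% over the libraries. In the first ratio, 17.7 and 18.7 per 1000 in these libraries therefore cannot be told apart. The labels call the molecule polyA RNA, and whether *Mt-nd6* was captured as well as the heavy-strand members was not tested. The ratio therefore depends on capture too. The sources used here do not say whether counting used the strand. Without strand, reads from *Mt-nd6* and reads from heavy-strand precursors across the same stretch cannot be told apart. Mitochondrial sequences copied into the nuclear genome can also take or give reads of all members.

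The mean profile of the 7 members over the 4 libraries was compared with that of each expressed gene ID by the root mean square difference of centred log2 CPM. Each member was compared with the mean profile of the other 6, since it is itself part of the mean of all 7. *Mt-nd2* differed least from the others, by 0.02, with 3 gene IDs of no member nearer to them. The other members differed by 0.12 to 0.17 from the mean profile without themselves, with 532 to 2025 gene IDs of no member nearer. For *Mt-nd3* (0.14), counting error alone could give such a difference, as it gave its log2 ratio to *Mt-nd1* an SD of 0.16. The gene IDs nearest to the mean profile of all 7 were ENSRNOG00000020626 and ENSRNOG00000017654, at 0.01 and 0.02, with 6.95 to 9.37 CPM and 11.6 to 15.8 CPM. The table does not pair them with symbols. These 2 were picked as the nearest of 11112 gene IDs, on 4 values each. *Mt-nd6* had a similar CPM, and counting error alone gave the log2 ratio of *Mt-nd1* to *Mt-nd6* an SD of 0.09. Differences of 0.01 and 0.02 are thus below counting error at such CPM, and this nearness is only a description.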

How the data were processed

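The members and gene lists were chosen with earlier results of these data known. The authors deposited raw counts per gene ID of Ensembl release 93 on rn6 (Rnor_6.0), with 1 column per library and 0 other columns, and reads were 250 nt and paired per the labels. STAR 2.5.3a and bedtools 2.26.0 are named in the submitters' processing notes. The program that counted, its use of strand and its handling of multimapping reads are not stated in the sources used. Symbols of the 7 members came with their IDs, and no other ID was named. The RefSeq table of GRCr8 used here listed 0 Ensembl IDs, so nuclear complex I genes and the other mitochondrial genes were not analysed here.

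CPM was computed on each library total in Python 3.11.15 with pandas 2.3.3 and scipy 1.17.1. Dispersions were fitted with an intercept only in R 4.3.3 with edgeR 4.0.16 (TMM, at least 10 counts over 4 libraries) and DESeq2 1.42.0. Tested on simulated counts of 4 libraries and 16128 gene IDs, edgeR drew noisy genes strongly towards the trend, whereas the estimate of DESeq2 from each gene alone did not. The median spread of the noisy genes was 25.8% by edgeR and 54.0% by DESeq2, and that of the others was 21.2% by edgeR. The simulation gave these others the same spread at every count level, unlike the real data. The spread set for the noisy genes was above both their medians, and far above 25.8%. For the others it was slightly below 21.2%. The noisy genes were drawn only from gene IDs with many counts. Tests per coding length were planned, but lengths were not used here, so counts are given without length and no test between members was run. Genes named are the 7 members and the 2 gene IDs nearest to their mean profile.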

Additional observations from a re-analysis of the deposited data

How the results depend on the processing

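The summed share of 0.354% was 0.355% to 0.356% with TMM, DESeq2 size factors or library totals without the members, and 0.336% to 0.368% without 1 replicate. The mean levels of the 7 members changed by -0.013% to 0.363% under the 3 scalings and by -8.92% to 8.28% without 1 replicate. The scalings keep the average library size nearly unchanged, so means over the 4 libraries could hardly move under them. Single libraries shifted, for example by 0.032 in log2 for replicate 2 and -0.043 for replicate 4 with DESeq2 size factors. The median spread of the members (10.9% in edgeR) was 16.4% by DESeq2 from each gene alone, which is not drawn to a trend, and 9.31% to 11.1% without 1 replicate. *Mt-nd6* counts per 1000 of the mean heavy-strand member (20.8) were 19.2 to 21.8 without 1 replicate and 21.2 against the median member. *Mt-nd4l* counts per 100 *Mt-nd4* counts (16.3) were 15.4 to 17.3 without 1 replicate. The number of members with an at least 1.5-fold range (3) was 2 to 3 without 1 replicate, and those highest in replicates 1 and 3 were 6 under the 3 scalings. Levels and order per coding length were not run, since lengths were lacking. No paired analysis was possible because all libraries belong to 1 group. At most 114 counts a library limit *Mt-nd3*.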
